A study of Gallus gallus with 32 samples.

Results

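T cells carry out antigen-specific immunity, and the liver holds resident and passing T cells among its hepatocytes. A T cell recognises antigen through a receptor whose signalling chains include the CD3 proteins, and the kinase ZAP70 binds the phosphorylated CD3 and zeta chains and passes the signal on. Interleukin-7, a cytokine made by stromal cells, binds a receptor built from IL7R and the common gamma chain and sustains naive and memory T cells, and in mammals T cells lower IL7R when they are activated or receive the cytokine.

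The genes described here are 5 T cell genes, chosen by name from the 25619 genes of the table: CD3E and CD3D (CD3 chains of the antigen receptor), CD8A (coreceptor of cytotoxic T cells), ZAP70 (the receptor-proximal kinase) and IL7R (the interleukin-7 receptor chain). They were read as poly(A)-selected RNA in 32 liver libraries of Arbor Acres broilers, chickens bred for meat. There were 8 libraries from each of 4 diets, with 1.8 g/kg (labelled Arg), 9 g/kg (5X Arg) or 18 g/kg (10X Arg) of arginine added, against a control diet with none. The labels give no age or sex. They do not say whether libraries of the same diet stem from different birds, so each p-value reflects only the library-to-library spread, which may be technical. Expression is in TPM, a length-corrected share of a library's RNA. The depth of the libraries is unknown, so no counting error can be given.

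All 5 genes were above 0 in all 32 libraries and reached the mean of at least 1 TPM that was required for testing, as did 11339 genes in all. Bulk liver RNA mixes cell types, and the cells that a transcript came from were not determined. Fewer T cells, less of a transcript per T cell and RNA from other cells thus cannot be told apart in any value below. Of 14 T cell marker genes, these 5 among them, all 14 were in the table and above 0 in every library, and 9 had a mean of at least 1 TPM. No T cell marker was listed at 0. The T cell markers summed to between 59.4 and 222 TPM per library, against 73042 to 157833 TPM for hepatocyte markers. These sums cover the chosen genes only and do not measure the share of T cells in the RNA.

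With added arginine the group means of IL7R were lower and those of the other 4 genes higher than on the control diet, but no difference passed the adjusted test. IL7R averaged 10.1, 7.73 and 9.77 TPM at 1.8, 9 and 18 g/kg, against 14.0 TPM on the control diet. At 9 g/kg, 7 of 8 libraries lay below every control library, as in 0.0441% of tested genes. At 1.8 g/kg the higher means of ZAP70 and CD8A rest on replicate 4 of that diet, without which both means were below that of the control diet. Relative to CD3E, IL7R lay below every control library in 8 of 8 libraries at 9 g/kg, as in 0.115% of tested genes. IL7R, although Z-linked, differed little between libraries with and without the W-linked transcript HINTW.

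**Figure D1:**
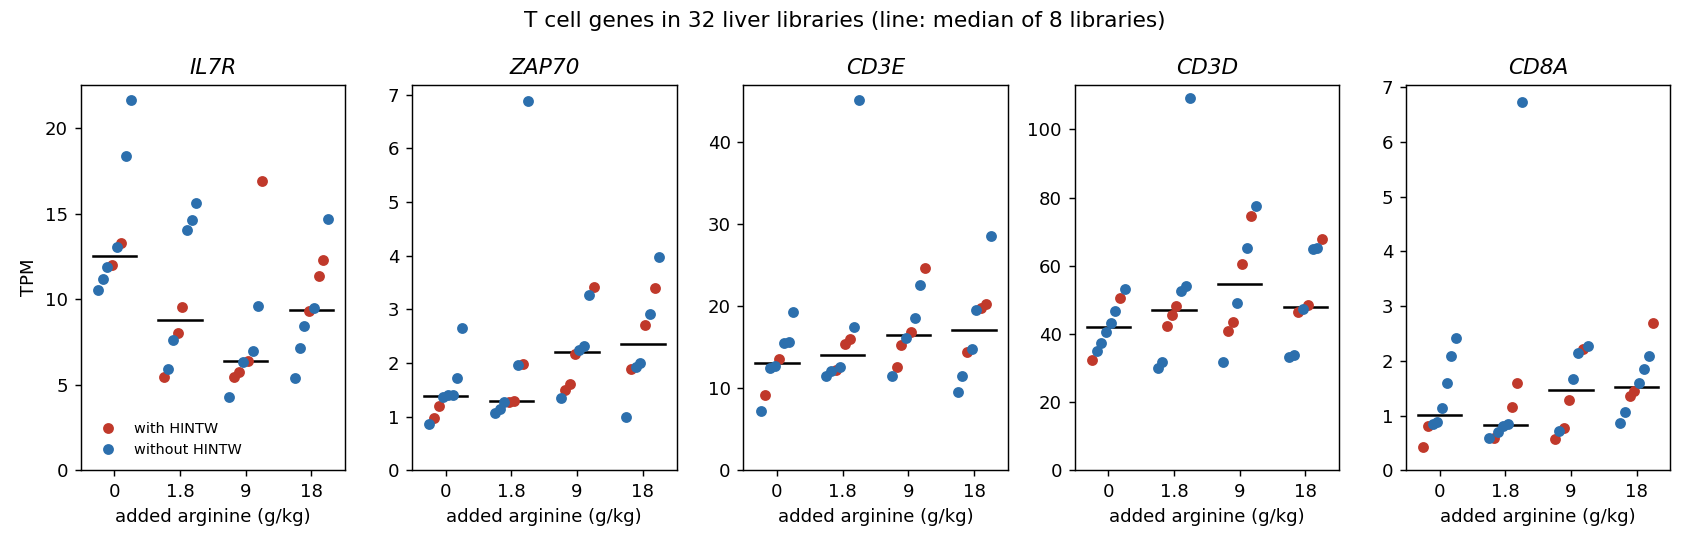
TPM of the 5 genes (y axis, linear, from 0) by added arginine in g/kg (x axis), with 1 point per library and a line at the median of 8 libraries; red points are libraries with HINTW and blue points libraries without it. IL7R has its lowest median, 6.38 TPM, at 9 g/kg, and a single 1.8 g/kg library is the highest point for ZAP70, CD3E, CD3D and CD8A.

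A single library stood apart for 4 of the 5 genes. Replicate 4 of the 1.8 g/kg diet had the highest value of all 32 libraries for ZAP70 (6.88 TPM), CD3E (45.06 TPM), CD3D (109.11 TPM) and CD8A (6.73 TPM). These were 4.00, 2.96, 2.33 and 5.80 times the median of the other 31 libraries. Its IL7R, 14.08 TPM, ranked only the 7th and was 1.48 times that median. The library was also the highest for other lymphocyte genes: CD247 (the zeta chain of the receptor) had 12.08 TPM against a median of 4.19 TPM in the other libraries, and GZMA (granzyme A, a protease of cytotoxic granules) had 51.92 TPM against 5.47 TPM. Its summed markers ranked the highest for T cells (222 TPM, the 5 genes included), NK and cytotoxic cells (540 TPM), macrophages and Kupffer cells (1399 TPM) and endothelium (135 TPM). Its B and plasma cell markers ranked the 2nd highest (81.4 TPM), and its hepatocyte markers ranked 31 of 32 (88515 TPM). Replicate 7 of the control diet was the lowest of the 32 for ZAP70 (0.86 TPM), CD3E (7.23 TPM) and the endothelial marker sum (24.9 TPM). Values without these libraries are given beside some of the results, not beside all that rest on them. Each SE, interval and p of limma uses a spread estimated over all 32 libraries. Replicate 4 of the 1.8 g/kg diet thus also enters those of the other doses.

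Levels of the 5 genes kept nearly the same order in every library. CD3D was the most abundant on the TPM scale, with a mean of 50.1 TPM over the 32 libraries, followed by CD3E with 16.4 TPM, IL7R with 10.4 TPM, ZAP70 with 2.07 TPM and CD8A with 1.49 TPM. CD3D exceeded CD3E in 32 of 32 libraries and IL7R exceeded ZAP70 in 32 of 32. ZAP70 exceeded CD8A in 29 of 32, so these neighbours overlap. CD3E exceeded IL7R in 27 of 32 libraries. These were 5 of 8 control libraries, 6 of 8 at 1.8 g/kg, 8 of 8 at 9 g/kg and 8 of 8 at 18 g/kg. The difference between these counts was not tested, and they restate the ratio of IL7R to CD3E given below. In the GRCg7b gene table, used for names and neighbours only, CD3E and CD3D lie next to each other on chromosome 24, ZAP70 lies on chromosome 28, CD8A on chromosome 4 and IL7R on chromosome Z. CD3E overlaps MPZL2 there, which averaged 2.21 TPM, and CD8A overlaps 2 uncharacterised genes that averaged 0.1 and 0.06 TPM.

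CD3E, a CD3 chain that pairs with CD3D in the receptor of mammals, had higher group means with arginine and wide overlap. Its lowest, median and highest values were 7.23, 13.1 and 19.3 TPM on the control diet, 11.4, 14.0 and 45.1 TPM at 1.8 g/kg, 11.5, 16.5 and 24.6 TPM at 9 g/kg, and 9.55, 17.1 and 28.5 TPM at 18 g/kg. All 3 arginine ranges overlapped the control range, and 1, 2 and 4 of 8 libraries at 1.8, 9 and 18 g/kg exceeded the highest control library. Having at least 4 of 8 libraries above every control library was met by 2.83% of tested genes at 18 g/kg, and at least 2 of 8 by 20.1% at 9 g/kg. Group means were 17.8 ± 11.2, 17.2 ± 4.54 and 17.3 ± 6.03 TPM at 1.8, 9 and 18 g/kg, against 13.2 ± 3.80 TPM on the control diet (SD, n = 8 each). The log2 differences from control, on log2(TPM + 1), were 0.31 ± 0.23, 0.37 ± 0.23 and 0.35 ± 0.23 (SE), with limma's adjusted p of 1, 0.956 and 1. Without replicate 4 of the 1.8 g/kg diet the first of these was 0.11, and without replicate 7 of the control diet the 3 differences were 0.21, 0.27 and 0.24.

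CD3D, the other CD3 chain measured, was about 3 times as abundant as CD3E, with a median ratio of 3.13 over the 32 libraries. Its lowest, median and highest values were 32.3, 42.0 and 53.1 TPM on the control diet, 30.1, 46.9 and 109 TPM at 1.8 g/kg, 31.8, 54.8 and 77.5 TPM at 9 g/kg, and 33.2, 47.9 and 68.0 TPM at 18 g/kg. The ranges overlapped at every dose, with 2, 4 and 3 of 8 libraries at 1.8, 9 and 18 g/kg above the highest control library. Below the lowest control library lay 2, 1 and 0 of 8. The shares of genes that match the counts at 1.8 and 18 g/kg are not given here. At 9 g/kg, 2.82% of tested genes had at least 4 of 8 libraries above every control library. CD3D averaged 51.7 ± 24.8, 55.4 ± 16.5 and 50.9 ± 13.8 TPM at 1.8, 9 and 18 g/kg, against 42.4 ± 7.46 TPM on the control diet (SD, n = 8 each). The log2 differences were 0.19, 0.34 and 0.23, each ± 0.21 (SE), and limma's smallest adjusted p was 0.956. The difference at 1.8 g/kg was 0.03 without that diet's replicate 4. Leaving out replicate 7 of the control diet gave a control mean of 43.4 TPM. The ratio of CD3D to CD3E within a library had medians of 2.81, 3.16 and 3.22 at 1.8, 9 and 18 g/kg, against 3.32 on the control diet, with overlapping ranges.

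CD8A, which with CD8B forms the coreceptor that binds class I MHC, was the least abundant of the 5. Its lowest, median and highest values were 0.43, 1.01 and 2.42 TPM on the control diet, 0.59, 0.83 and 6.73 TPM at 1.8 g/kg, 0.57, 1.47 and 2.28 TPM at 9 g/kg, and 0.87, 1.52 and 2.69 TPM at 18 g/kg. The groups overlapped almost completely, and at most 1 library of a dose exceeded the highest control library. Group means were 1.63 ± 2.09, 1.45 ± 0.716 and 1.62 ± 0.585 TPM at 1.8, 9 and 18 g/kg, against 1.27 ± 0.696 TPM on the control diet (SD, n = 8 each). The log2 differences were 0.03, 0.11 and 0.23, each ± 0.25 (SE), with 95% intervals from -0.48 to 0.54, from -0.40 to 0.62 and from -0.28 to 0.74. Differences within these intervals, in either direction, were thus not excluded. At 1.8 g/kg the sign rests on replicate 4, without which the difference was -0.22 ± 0.19 (SE). CD4, the coreceptor of helper T cells, averaged 2.58 ± 1.23, 2.19 ± 0.546 and 2.05 ± 0.977 TPM at 1.8, 9 and 18 g/kg, against 2.12 ± 1.08 TPM on the control diet (SD, n = 8 each), with log2 differences of 0.21, 0.11 and 0.00 and no adjusted call. Without control replicate 7 these were 0.04, -0.07 and -0.17.

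ZAP70 had its highest group mean at the highest dose. Its lowest, median and highest values were 0.86, 1.38 and 2.66 TPM on the control diet, 1.06, 1.29 and 6.88 TPM at 1.8 g/kg, 1.35, 2.21 and 3.42 TPM at 9 g/kg, and 0.99, 2.36 and 3.98 TPM at 18 g/kg. At 9 and at 18 g/kg, 7 of 8 libraries lay above the control mean, while 2 and 4 of 8 lay above the highest control library and the ranges overlapped. At least 2 of 8 libraries above every control library was met by 20.1% of tested genes at 9 g/kg, and at least 4 of 8 by 2.83% at 18 g/kg. ZAP70 averaged 2.11 ± 1.96, 2.23 ± 0.775 and 2.48 ± 0.960 TPM at 1.8, 9 and 18 g/kg, against 1.45 ± 0.559 TPM on the control diet (SD, n = 8 each). The log2 differences were 0.22 ± 0.22, 0.39 ± 0.22 and 0.48 ± 0.22 (SE). The last had an unadjusted p of 0.0327 in limma and an adjusted p of 1. Single-gene exact permutation tests, 2-sided and unadjusted, gave p = 0.491, 0.0298 and 0.0205 for the 3 doses, within a family of 15 such tests of the 5 genes against control. A slope of 0.02 ± 0.01 (SE) log2 per g/kg had an unadjusted p of 0.0326 and an adjusted p of 1.00 in limma, where 2.03% of genes had an unadjusted p below 0.05. Without replicate 4, the difference at 1.8 g/kg was 0.00. Leaving out replicate 7 of the control diet gave a control mean of 1.53 TPM.

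IL7R had lower group means at every dose, the opposite direction to the other 4 genes, except that at 1.8 g/kg ZAP70 and CD8A too had lower means without replicate 4 of that diet (1.43 and 0.899 TPM, against 1.45 and 1.27 TPM on the control diet). Control libraries held 10.56, 11.18, 11.89, 12.02, 13.07, 13.28, 18.40 and 21.68 TPM in ascending order. Libraries at 1.8 g/kg held 5.47, 5.93, 7.64, 8.04, 9.54, 14.08, 14.65 and 15.64 TPM, which fall into 5 values below the whole control range and 3 inside it. Libraries at 9 g/kg held 4.29, 5.46, 5.76, 6.33, 6.42, 6.99, 9.62 and 16.95 TPM, and replicate 6 with 16.95 TPM was the only library of that diet inside the control range. The library with 16.95 TPM was also the highest of its diet for CD3E (24.61 TPM). Its summed T cell markers ranked 2nd of the 32 libraries. That sum includes IL7R and the other 4 genes and so partly restates their values. At 18 g/kg the values were 5.40, 7.15, 8.45, 9.30, 9.51, 11.36, 12.29 and 14.69 TPM, again with 5 below every control library. None of the 24 arginine libraries exceeded the highest control value, which rests on 1 library, replicate 6. How many other genes share this was not counted.

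Most genes did not separate this way. At least 5 of 8 libraries below every control library was met by 0.45% of tested genes at 1.8 g/kg and by 0.3% at 18 g/kg. At least 7 of 8 was met by 0.0441% of tested genes at 9 g/kg, that is by ANO9, IL7R, LDLRAD3, PXYLP1 and TMEM171, genes other than IL7R being listed because their count was small and after their values were seen. IL7R averaged 10.1 ± 4.08, 7.73 ± 4.03 and 9.77 ± 2.95 TPM at 1.8, 9 and 18 g/kg, against 14.0 ± 3.93 TPM on the control diet (SD, n = 8 each). The log2 differences were -0.48 ± 0.23, -0.85 ± 0.23 and -0.49 ± 0.23 (SE), and the 95% interval at 9 g/kg ran from -1.31 to -0.39.

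By limma's moderated test the unadjusted p for IL7R was 0.0406 at 1.8 g/kg, 0.000704 at 9 g/kg and 0.0371 at 18 g/kg, and the adjusted p was 1, 0.761 and 1. At 9 g/kg only 8 of the 11339 genes had a smaller p. At an adjusted p below 0.05, limma called 0% of tested genes at each of the 3 doses, and none of the 5 T cell genes. The share with an unadjusted p below 0.05 was 2.34% at 1.8 g/kg, 4.87% at 9 g/kg and 2.44% at 18 g/kg (265, 552 and 277 genes), each below the 5% that unadjusted p-values give when nothing differs. Exact permutation tests of IL7R alone, 2-sided and unadjusted, gave p = 0.0524, 0.00342 and 0.0188. They belong to the same family of 15 tests against control, of genes chosen with earlier results of these data known. The 3 differences share the 8 control libraries and are not independent of each other. The control side includes the 2 highest IL7R values of the study, and without replicate 6, the highest, the difference at 9 g/kg was -0.76. Without the high 9 g/kg library it was -1.01, with an adjusted p of 0.188.

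The doses themselves could not be ordered for IL7R. Its log2 difference was -0.37 ± 0.23 for 9 minus 1.8 g/kg, -0.01 ± 0.23 for 18 minus 1.8 g/kg and 0.36 ± 0.23 for 18 minus 9 g/kg (SE). Their unadjusted p in limma was 0.115, 0.967 and 0.125. The F test of any difference among the 4 diets gave IL7R an unadjusted p of 0.00758, with 55 genes ahead of it, and an adjusted p of 1.00; 3.18% of genes had an unadjusted p below 0.05. A straight line on the dose had a slope of -0.02 ± 0.01 (SE) log2 per g/kg with an unadjusted p of 0.105. For the other 4 genes all 3 differences between doses were between -0.11 and 0.27.

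**Figure D2:**
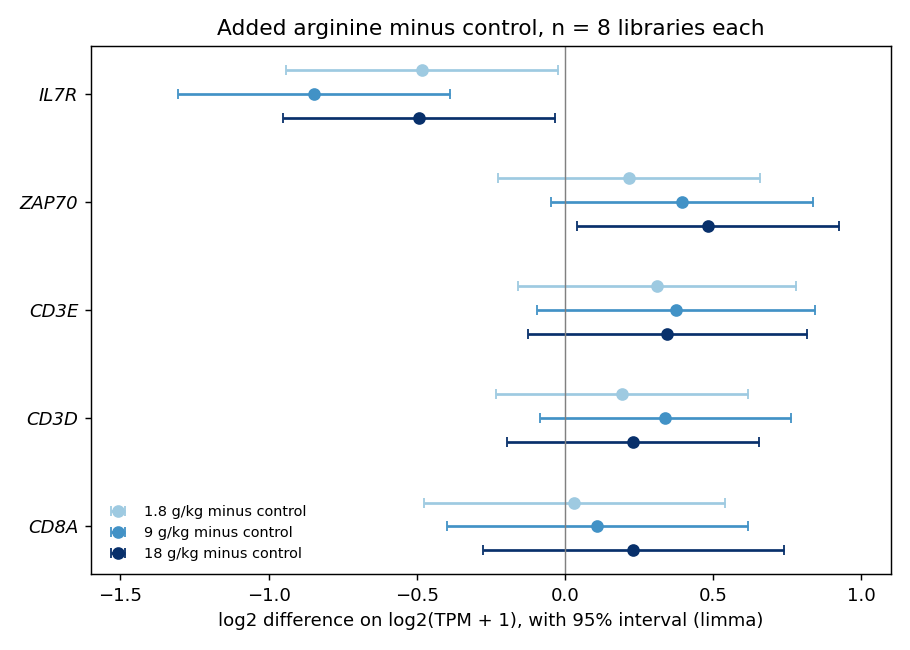
Log2 difference from the control diet on log2(TPM + 1) (x axis) for the 5 genes (rows) at 3 doses of arginine. Points are differences between means of 8 and 8 libraries. Bars are limma's 95% intervals, before any adjustment, with a spread estimated over all 32 libraries. The 3 IL7R points lie at -0.48, -0.85 and -0.49 and the 12 points of the other genes between 0.03 and 0.48.

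Dividing IL7R by CD3E within each library sets it against a gene of the T cell receptor complex. At 9 g/kg the ratio was 0.34, 0.36, 0.37, 0.38, 0.39, 0.43, 0.51 and 0.69, against 0.77, 0.83, 0.88, 0.89, 0.96, 1.45, 1.46 and 1.75 in control libraries. The highest value at 9 g/kg was thus below the lowest control value. At 1.8 g/kg it ran from 0.31 to 1.37 with a median of 0.49, and 5 of 8 libraries lay below every control library. At 18 g/kg it ran from 0.28 to 1.00 with a median of 0.64, and 6 of 8 lay below. The groups thus overlapped at 1.8 and at 18 g/kg and were apart at 9 g/kg.

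Among all tested genes set against CD3E in the same way, 0.115% (13 genes, IL7R included) had all 8 libraries at 9 g/kg below every control library. The share with at least 5 of 8 was 2.28% at 1.8 g/kg, and the share with at least 6 of 8 was 2.11% at 18 g/kg. The ratio of IL7R to CD3D gave 6, 7 and 5 of 8 libraries below every control library at 1.8, 9 and 18 g/kg, where 0.423%, 0.485% and 4.34% of genes did as much. Its medians were 0.168, 0.127 and 0.208 at 1.8, 9 and 18 g/kg, against 0.302 on the control diet. Of the ratios without IL7R, ZAP70 to CD3E had medians of 0.103, 0.133 and 0.139 at 1.8, 9 and 18 g/kg, against 0.111 on the control diet, and CD8A to CD3E had 0.0644, 0.0830 and 0.0982, against 0.102. A ratio shows unequal values of its genes and not which of them differed.

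**Figure D3:**
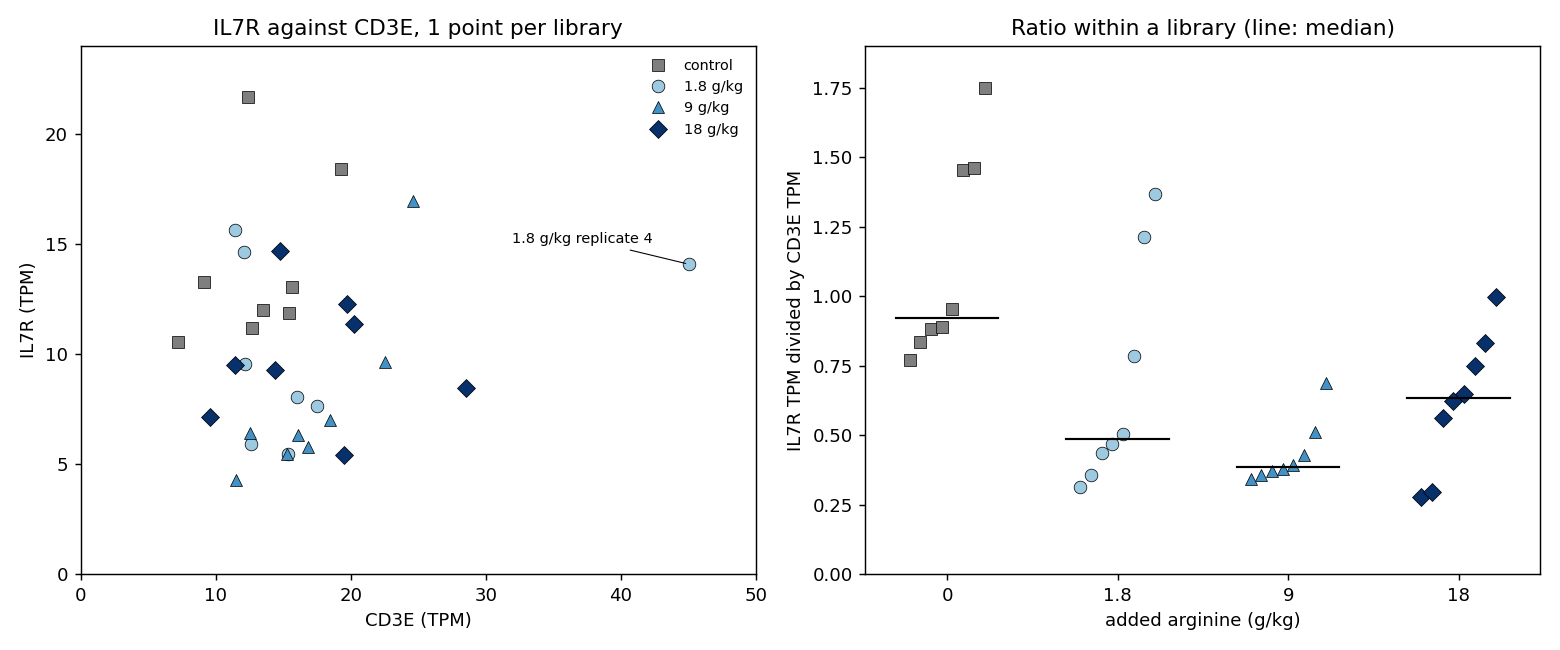
Left, IL7R against CD3E in TPM, 1 point per library, with the diet as colour and shape; right, the ratio of IL7R to CD3E within each library by added arginine in g/kg, with a line at the median of 8 libraries. All 8 ratios at 9 g/kg (0.34 to 0.69) lie below the lowest control ratio (0.77), and replicate 4 of the 1.8 g/kg diet lies far to the right in CD3E.

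Across libraries, CD3E, CD3D, CD8A and ZAP70 varied together, and IL7R had lower, though positive, correlations with each of them. After subtraction of each diet's mean, Pearson's r of log2(TPM + 1) over the 32 libraries was 0.94 for ZAP70 with CD3E, 0.87 for CD3E with CD3D, 0.86 for ZAP70 with CD8A, 0.83 for ZAP70 with CD3D, 0.81 for CD3E with CD8A and 0.72 for CD3D with CD8A. Spearman's rho for these 6 pairs ran from 0.583 to 0.869. In permutation tests with 100000 resamples, adjusted over the 10 pairs of the 5 genes, the largest adjusted p of the 6 was 3.3e-05 for r and 0.0009 for rho. Without replicate 4 of the 1.8 g/kg diet the 6 values of r were 0.90, 0.81, 0.74, 0.75, 0.67 and 0.56 in the same order. Libraries can differ in their mix of cells, and the part of that mix in these correlations was not tested.

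IL7R had r of 0.34 with ZAP70, 0.34 with CD8A, 0.33 with CD3E and 0.18 with CD3D, and rho of 0.23, 0.28, 0.25 and 0.11. Without replicate 4 of the 1.8 g/kg diet r was 0.26, 0.25, 0.25 and 0.06 in the same order. Adjusted permutation p ran from 0.0716 to 0.333 for r and from 0.168 to 0.549 for rho, so none passed. Leaving out the 2 libraries with IL7R farthest from its median, r with CD3E was 0.35. Among the 12 libraries with HINTW its r was 0.60 with ZAP70, 0.61 with CD3E, 0.55 with CD3D and 0.42 with CD8A, and among the 20 without it 0.27, 0.25, 0.05 and 0.31. The difference between these classes was not tested.

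The genes most like each of the 5 were listed by r over the 32 libraries, diet means subtracted, as a description only. Except for IL7R, the highest r of each gene was with another of the 5, that is ZAP70 and CD3E with each other (0.94), CD3D with CD3E (0.87) and CD8A with ZAP70 (0.86). For CD8A this did not hold without replicate 4 of the 1.8 g/kg diet, when LOC429682 (0.76) was ahead of ZAP70 (0.74). Without control replicate 7, CD8A was nearest to CD247 (0.86). The 5 T cell genes were left out of the lists that follow. For ZAP70 the nearest were IL16 (0.93), MICAL1 (0.92), LOC429682 (0.91), CYTIP (0.90) and CD247 (0.89), and for CD3E LOC769232 (0.91), IL16 (0.90), LOC429682 (0.89), SCIN (0.89) and SH2D1A (0.88), the last encoding the lymphocyte adaptor SAP. CD3D was nearest to CYTIP (0.86), LOC776173 (0.84), IKZF3 (0.82), IL16 (0.81) and LOC419545 (0.80). CD8A was nearest to CD247 (0.85), LOC429682 (0.85), ARHGAP25 (0.82), IKZF3 (0.81) and LOC423110 (0.81). Without replicate 4 of the 1.8 g/kg diet, IKZF3 and LOC423110 fell to places 48 and 35 for CD8A, with r of 0.60 and 0.61. IKZF3 encodes the lymphoid transcription factor Aiolos. Several of these genes recur between the lists, as IL16 does for ZAP70, CD3E and CD3D.

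The nearest genes to IL7R were others: TEC (0.73), a kinase of haematopoietic cells, THUMPD2 (0.70), SOX6 (0.68), a transcription factor, CXCL12 (0.66), the ligand of the chemokine receptor CXCR4, and DOCK4 (0.65). Only TEC and THUMPD2 reached r of 0.7 with IL7R, whereas 244 of 11338 genes did with ZAP70, 203 with CD3E, 99 with CD8A and 36 with CD3D, the other T cell genes counted in. These counts rest largely on replicate 4 of the 1.8 g/kg diet, without which they were 51 for ZAP70, 51 for CD3E, 4 for CD8A and 9 for CD3D, with 2 for IL7R. Without that library, the first places for IL7R went to SOX6 (0.73), TEC (0.72) and THUMPD2 (0.68). At 9 g/kg the log2 differences of TEC, THUMPD2, SOX6, CXCL12 and DOCK4 from control were 0.12, -0.33, -0.32, -0.22 and 0.07, all smaller than that of IL7R.

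HINTW is encoded on the W chromosome, which only females carry in birds, while males carry a pair of Z chromosomes and females a single Z. Birds compensate Z dosage incompletely, so Z-linked genes are on the whole more highly expressed in males. HINTW was at 20.08 to 37.73 TPM in 12 libraries and at 0 in the other 20, with nothing between. The 12 libraries comprised 3, 4 and 3 of 8 at 1.8, 9 and 18 g/kg, against 2 of 8 on the control diet, and the 20 comprised 5, 4 and 5, against 6. This status was read from the data and is not in the labels.

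IL7R averaged 9.66 ± 3.63 TPM in libraries with HINTW (SD, n = 12) and 10.9 ± 4.64 TPM in libraries without it (SD, n = 20). Within diets the means with and without HINTW were 7.68 and 11.6 TPM at 1.8 g/kg, 8.65 and 6.81 TPM at 9 g/kg, and 11.0 and 9.04 TPM at 18 g/kg, against 12.7 and 14.5 TPM on the control diet. By these means libraries with HINTW were the higher at 9 and 18 g/kg and the lower at 1.8 g/kg and on the control diet. By medians the order turned at 9 g/kg (6.09 TPM with and 6.66 TPM without HINTW). It also turned on the control diet (12.65 and 12.48 TPM), where only 2 libraries had HINTW. At 9 g/kg the mean with HINTW includes replicate 6 at 16.95 TPM, while the other libraries with HINTW held 5.46, 5.76 and 6.42 TPM. With the diet in the model, the difference with minus without HINTW was -0.01 ± 0.17 log2 (SE) with a 95% interval from -0.36 to 0.33 and an adjusted p of 0.990 in limma. With no diet term the difference was -0.13 log2, and a permutation test of that value gave p = 0.527.

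Z-linked genes as a class were lower in libraries with HINTW. The median of the 513 tested Z-linked genes was -0.35 log2, with quartiles of -0.56 and -0.13, and 87.3% of them were lower in libraries with HINTW. Of the Z-linked genes, limma called 34.7% lower at an adjusted p below 0.05. Among all tested genes, the Z-linked included, 2.41% were called in either direction. Of the 10639 genes on numbered chromosomes, 40 were called in either direction, and the median over all 10639 was 0.01. Only 72 of the 513, IL7R included, had a difference at or above that of IL7R. The lower end of its interval, -0.36, just reaches the Z-linked median, so a shift of that size was not excluded.

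ZAP70, CD3E, CD3D and CD8A, which are not Z-linked, had differences with minus without HINTW of -0.09 ± 0.16, -0.05 ± 0.17, 0.00 ± 0.16 and -0.20 ± 0.18 log2 (SE). None was called. CD8A averaged 1.24 ± 0.685 TPM in libraries with HINTW (SD, n = 12) and 1.65 ± 1.34 TPM in those without it (SD, n = 20), among which was the library with 6.73 TPM.

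**Figure D4:**
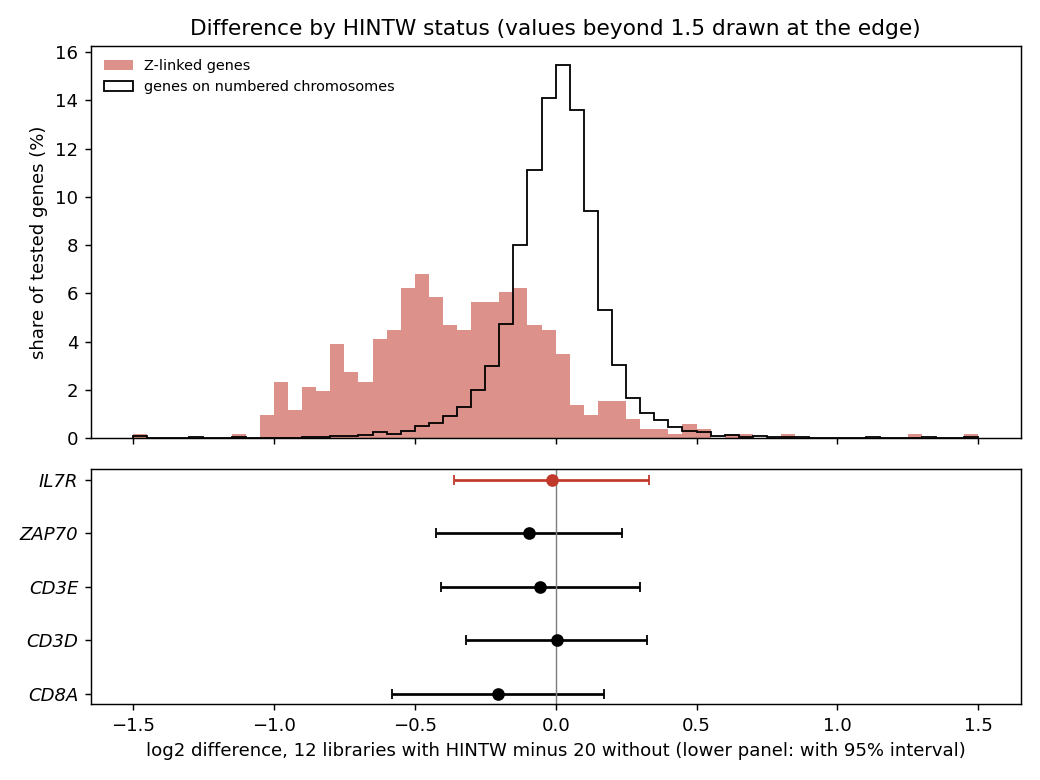
Upper panel, share of tested genes in percent (y axis) by log2 difference of 12 libraries with HINTW minus 20 without (x axis), for 513 Z-linked genes (filled) and 10639 genes on numbered chromosomes (outline); lower panel, the same difference for the 5 T cell genes with 95% intervals. Z-linked genes centre at -0.35, while IL7R, Z-linked too and drawn in red, lies at -0.01.

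Group means of IL7R were lower with arginine at all 3 doses among libraries without HINTW and also among those with it. Among libraries without HINTW, IL7R had 4.29, 6.33, 6.99 and 9.62 TPM at 9 g/kg, all below the lowest of the 6 control libraries of that class, 10.56 TPM, as in 0.776% of tested genes, and the highest control value was 21.68 TPM. The log2 difference there was -0.98 at 9 g/kg, -0.34 at 1.8 g/kg and -0.64 at 18 g/kg. In libraries with HINTW, the 4 at 9 g/kg held 5.46, 5.76, 6.42 and 16.95 TPM, against 12.02 and 13.28 TPM in the 2 control libraries. With HINTW status as a term over all libraries the difference at 9 g/kg was -0.84.

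The difference of the arginine effect between the 2 classes, tested as an interaction, was -0.34 ± 0.50, 0.34 ± 0.49 and 0.45 ± 0.50 log2 (SE) for IL7R at 1.8, 9 and 18 g/kg. The adjusted p was 1.00, 0.911 and 0.867 in limma, and no tested gene was called at any dose. The share of genes with an unadjusted p below 0.05 was 2.96%, 3.99% and 5.08%. The differences of Z-linked genes from control had medians of -0.05, -0.14 and -0.07 at 1.8, 9 and 18 g/kg, and 15, 5 and 11 of the 513 were at or below IL7R.

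Other genes of the T cell receptor and its signalling had mostly positive differences at 9 and 18 g/kg, and at 1.8 g/kg with replicate 4 included, none of them called. In the T cell receptor complex and coreceptor list, which includes CD3E, CD3D and CD8A, 6, 6 and 5 of 6 tested genes were higher at 1.8, 9 and 18 g/kg than on the control diet, with median log2 differences of 0.20, 0.27 and 0.29. The medians over all 11339 genes were 0.03, 0.00 and 0.02, and 59.0%, 50.6% and 55.6% of them were higher. At 1.8 g/kg these values rest on replicate 4 of that diet. Without it 4 of the 6 genes of the list were higher, with a median of 0.03, and 45.0% of all tested genes were, with a median of -0.02. Without control replicate 7 as well, 1 of the 6 was higher, with a median of -0.05, and 40.7% of all tested genes were. Without control replicate 7 alone the medians of the list were 0.13, 0.17 and 0.22 at 1.8, 9 and 18 g/kg, with 5 of 6 higher at each dose. CD247, the zeta chain that ZAP70 binds, averaged 4.60 ± 3.16, 4.61 ± 1.11 and 5.23 ± 1.37 TPM at 1.8, 9 and 18 g/kg, against 3.63 ± 1.49 TPM on the control diet (SD, n = 8 each). Without replicate 4 its mean at 1.8 g/kg was 3.53 ± 0.970 TPM (SD, n = 7). Its log2 difference of 0.45 ± 0.22 (SE) at 18 g/kg had an unadjusted p of 0.0439 and an adjusted p of 1 in limma. Without control replicate 7 that difference was 0.37.

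In the signalling list, which includes ZAP70, 16, 14 and 16 of 16 tested genes were higher at 1.8, 9 and 18 g/kg, with medians of 0.13, 0.13 and 0.17. Without replicate 4 of the 1.8 g/kg diet 8 of the 16 were higher at that dose, with a median of -0.01. SH2D1A had a difference of 0.50 at 1.8 g/kg, where it had 7.25 TPM in replicate 4 and a median of 1.37 TPM, and 0.28 without that library. The kinase LCK, which phosphorylates the CD3 chains and ZAP70 in mammals, averaged under 1 TPM and was not tested. Genes of one cell type can move together in bulk tissue, so such counts do not amount to independent observations.

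Costimulatory and inhibitory receptors showed the same sign, with 6 of 7 tested genes higher at each dose and medians of 0.11, 0.22 and 0.19 at 1.8, 9 and 18 g/kg. Without replicate 4 of the 1.8 g/kg diet 4 of 7 were higher at that dose, with a median of 0.02. BTLA, an inhibitory receptor of lymphocytes, averaged 2.25 ± 1.64, 2.60 ± 1.03 and 2.61 ± 0.795 TPM at 1.8, 9 and 18 g/kg, against 1.39 ± 0.692 TPM on the control diet (SD, n = 8 each), and its mean at 1.8 g/kg was 1.75 ± 0.888 TPM without replicate 4 (SD, n = 7). Its log2 differences of 0.60 at 9 g/kg and 0.63 at 18 g/kg had unadjusted p of 0.0191 and 0.0141 and did not pass adjustment in limma. Without control replicate 7 these differences were 0.47 and 0.50. Of the transcription factors, 8, 9 and 9 of 11 were higher, with medians of 0.12, 0.19 and 0.19, and 6 of 11 at 1.8 g/kg without replicate 4, with a median of 0.03. ID3 and ID2, inhibitors of E proteins, were among the lower ones at 1.8 g/kg, at -0.43 and -0.53, and both are abundant in these livers, at means of 142 and 39.5 TPM.

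Homing genes were higher in 8 of 10 at each dose, with medians of 0.22, 0.17 and 0.21, and 7 of 10 at 1.8 g/kg without replicate 4, with a median of 0.09. Without control replicate 7 their median at 9 g/kg was 0.08. CXCR4, a receptor for CXCL12, averaged 3.11 ± 1.51 TPM at 9 g/kg and 1.78 ± 0.668 TPM on the control diet (SD, n = 8 each), a log2 difference of 0.51 with an unadjusted p of 0.0470. Cytotoxic effector genes were higher in 7, 6 and 6 of 8 at 1.8, 9 and 18 g/kg, with medians of 0.22, 0.22 and 0.24, and 6 of 8 at 1.8 g/kg without replicate 4, with a median of 0.08. GZMM, granzyme M, averaged 7.54 ± 1.09 TPM at 9 g/kg and 5.49 ± 1.61 TPM on the control diet (SD, n = 8 each), a log2 difference of 0.43 with an unadjusted p of 0.00884 that did not pass adjustment.

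The interleukin-7 and common gamma chain list, to which IL7R belongs, had, in all libraries, the list medians closest to the background, with 13, 13 and 12 of 19 tested genes higher at 1.8, 9 and 18 g/kg and medians of 0.06, 0.08 and 0.06. Without replicate 4 of the 1.8 g/kg diet 6 of the 19 were higher at that dose, with a median of -0.05. IL7, the ligand, averaged 2.46 ± 0.409, 2.46 ± 0.524 and 2.32 ± 0.596 TPM at 1.8, 9 and 18 g/kg, against 2.33 ± 0.501 TPM on the control diet (SD, n = 8 each), and its log2 differences lay between -0.01 and 0.06. IL2RG, the common gamma chain with which IL7R pairs, averaged 14.5 ± 11.5, 17.5 ± 8.30 and 15.6 ± 7.59 TPM, against 13.1 ± 8.03 TPM (SD, n = 8 each). Its ranges overlapped throughout, and its log2 differences were 0.06, 0.40 and 0.25. Without replicate 4 its mean at 1.8 g/kg was 10.6 ± 2.98 TPM (SD, n = 7), below that of the control diet, and its difference was -0.18.

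JAK1, the kinase bound to IL7R in mammals, had log2 differences of 0.28, 0.36 and 0.10 at 1.8, 9 and 18 g/kg, and of 0.18, 0.26 and 0.00 without control replicate 7. SOCS1, a feedback inhibitor of cytokine signalling, was the other lower gene of the list with an unadjusted p below 0.05 at any dose, with a log2 difference of -0.63 at 1.8 g/kg. By limma its unadjusted p there was 0.0376 and its adjusted p was 1. SOCS1 averaged 11.2 ± 10.1, 10.2 ± 3.85 and 9.55 ± 2.45 TPM at 1.8, 9 and 18 g/kg, against 15.5 ± 6.38 TPM on the control diet (SD, n = 8 each). Its highest value, 34.84 TPM, was in a 1.8 g/kg library.

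**Figure D5:**
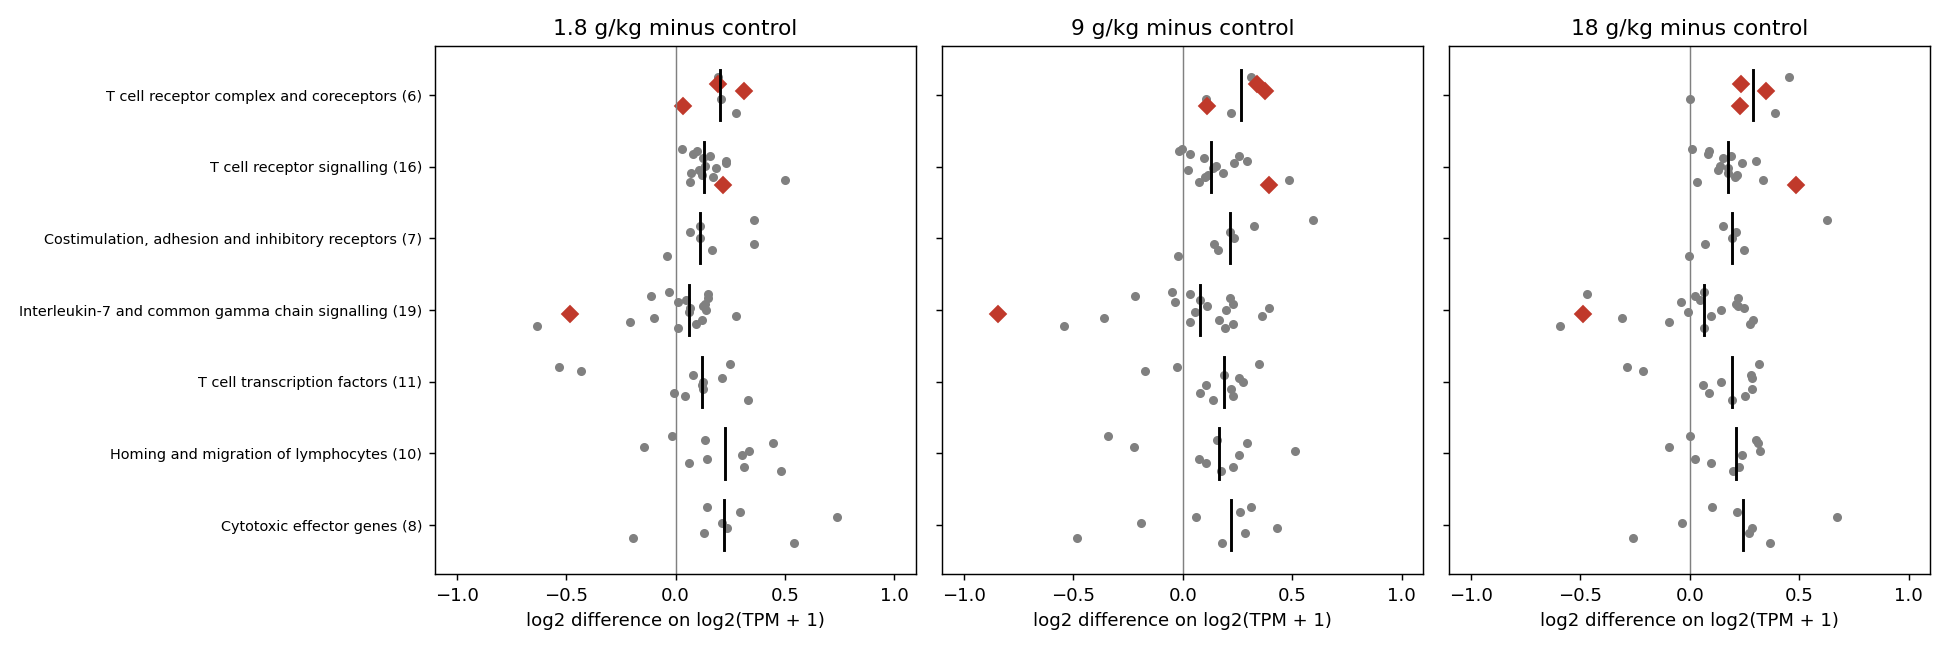
Log2 difference from the control diet on log2(TPM + 1) (x axis) for the tested genes of 7 lists (rows, number tested in brackets) at 3 doses; grey points are genes, red diamonds the 5 T cell genes of the report and black lines list medians. The red diamond to the left in the interleukin-7 list is IL7R at -0.48, -0.85 and -0.49, and all list medians, over all libraries, lie between 0.06 and 0.29.

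Summed markers of other cell types had medians that differed between diets, with overlapping ranges, and no B, plasma cell, endothelial or hepatocyte marker gene was called. Summed B and plasma cell markers had medians of 33.2, 36.4 and 31.2 TPM at 1.8, 9 and 18 g/kg, against 16.9 TPM on the control diet, where they ran from 8.52 to 34.9 TPM. Of 9 such symbols 8 were in the table, 2 had a mean of at least 1 TPM and none was at 0 throughout. Endothelial markers, 6 of 6 present, had medians of 101, 103 and 95.3 TPM at the 3 doses, against 73.1 TPM on the control diet, with ranges of 70.0 to 135, 74.7 to 133 and 73.0 to 108 TPM, against 24.9 to 116 TPM. The lowest of these control values was that of replicate 7. Hepatocyte markers, 7 of 8 present, had medians of 113050, 104096 and 103616 TPM, against 128232 TPM.

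The summed T cell markers, which include the 5 genes, had medians of 84.9, 94.99 and 96.4 TPM at 1.8, 9 and 18 g/kg, against 87.6 TPM on the control diet. Their ranges were 69.6 to 222, 61.5 to 141 and 59.4 to 131 TPM, against 61.9 to 111 TPM. NK and cytotoxic markers had medians of 163, 206 and 149 TPM, against 170 TPM, and macrophage markers 244, 389 and 353 TPM, against 312 TPM. Gene by gene, 8 of 8 tested macrophage markers were higher at each dose, with median log2 differences of 0.34, 0.455 and 0.76. So were 4 of 4 tested NK and cytotoxic markers, with medians of 0.21, 0.25 and 0.26. None was called, and both lists include replicate 4 of the 1.8 g/kg diet. Higher values were thus not limited to the T cell lists. The part of these cell types in the values of the 5 genes was not tested.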

How the data were processed

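Liver poly(A) RNA of 32 libraries was analysed. The authors deposited TPM for 25619 gene symbols; fastp, HISAT2, StringTie and RSEM are named per the submitters' processing notes, without versions or roles, and the genome build is not given in the sources used here. TPM sums ran from 998707 to 999281 and genes of at least 1 TPM from 10353 to 11678 per library. Counts were not used here, so depth is unknown. No 2 libraries held identical values.

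Libraries were grouped by dose as labelled. HINTW status was set at 1 TPM from the data. Values were log2(TPM + 1), a scale that understates differences of low genes. Genes averaging 1 TPM or more were fitted in limma 3.58.1 (R 4.3.3; 1 mean per diet over 32 libraries, eBayes with trend=TRUE), with 2-sided p and Benjamini-Hochberg adjustment over all tested genes, called below 0.05. The same code was run on simulated data with known changes, in which each gene's deviations from its diet means were shuffled separately. That shuffling removes differences shared by a whole library, and the outcome is not given here. HINTW contrasts added a diet term, or the interaction of diet and HINTW. Exact permutation tests and correlations were computed with NumPy 2.4.6, with ranks for Spearman's rho from SciPy 1.17.1. Of the symbols, 25368 matched the GRCg7b table.

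The 5 genes and all lists were chosen with earlier results of these data known. Besides the 5 genes, the text names up to 4 list genes with the smallest unadjusted p per list and contrast, fixed partners of the 5 genes, and the 5 genes most like each by r. The symbols LAT and STAT5B were not matched. Alternatives were other pseudocounts (0.1, 0.5), filters (none, 5 TPM), median-ratio rescaling, HINTW as covariate, libraries without HINTW alone, a replicate block, exact tests and leaving out each library. Added after seeing the data were fits without control replicate 7 and 1.8 g/kg replicate 4 together, and correlations, list counts and list genes without either.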

Additional observations from a re-analysis of the deposited data

Results flagged for a closer look

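Within 20 groups of 8 libraries (5 genes by 4 diets), 4 single values stood far from the rest of their group, by the gap to the nearest library divided by the group's range, both on log2(TPM + 1), against Dixon's 95% critical value. Chance gives about 1 such value in 20 groups on average, but the groups are not independent. All 4 came from replicate 4 of the 1.8 g/kg diet, in genes that varied together, so they do not count as 4 separate observations. They were ZAP70 at 6.88 TPM (gap 0.725 of the range), CD3E at 45.06 TPM (0.697), CD3D at 109.11 TPM (0.550) and CD8A at 6.73 TPM (0.692). IL7R in that library, 14.08 TPM, lay inside the range of its diet. Measured on TPM itself the same 4 values and a 5th passed, IL7R at 16.95 TPM in replicate 6 of the 9 g/kg diet (gap 0.579 of the range); that scale was added after seeing the data. Without this library, ZAP70, CD3E, CD3D and CD8A averaged 1.43 ± 0.381, 13.9 ± 2.36, 43.5 ± 9.47 and 0.899 ± 0.362 TPM at 1.8 g/kg (SD, n = 7).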

How the results depend on the processing

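None of the 5 genes had an adjusted p below 0.05 against control under any alternative fitted over all genes, and IL7R stayed below control at all 3 doses in each. At 9 g/kg its log2 difference ran from -1.01 to -0.76 when single libraries were left out and from -0.98 to -0.84 under the other settings, with adjusted p from 0.188 to 0.998. The exact permutation test of IL7R alone, without adjustment over genes, gave p = 0.00342 for the same -0.85. It was 1 of 15 such tests against control. Only among libraries without HINTW was any gene called at 9 g/kg, 1 against 0 with all libraries; it was AGMAT (agmatinase), named after its value was seen. The values do not settle whether the replicate numbers pair libraries of different diets. Same-numbered libraries had a median correlation of 0.03, against -0.0067 for different-numbered ones. A correlation above 0.1 was found in 18 of 48 same-numbered pairs and in 83 of 336 different-numbered pairs. Of the 32 libraries, 6 correlated best with their own number. Every diet holds each replicate number, so a replicate block could not change the diet differences (-0.85 for IL7R at 9 g/kg), only their SE and p. With the block none of the 5 genes was called.

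Differences by HINTW near 0 changed sign. For IL7R the value was 0.087 with the block, -0.11 to 0.058 with single libraries left out and 0.0036 without both control replicate 7 and 1.8 g/kg replicate 4. For CD3E it was 0.035 with the block, -0.10 to 0.031 and 0.0014, and for CD3D it ran from -0.055 to 0.075 with single libraries left out. At 1.8 g/kg, CD8A was -0.010 with pseudocount 0.1, -0.051 among libraries without HINTW, -0.22 to 0.12 with single libraries left out and -0.26 without both named libraries. Likewise ZAP70 ran from 0.0025 to 0.30 and was -0.050 without both, and CD3D ran from 0.026 to 0.29 and was -0.011. The cause was not tested. ZAP70 and CD8A have no value at a filter of 5 TPM. With 8 against 8 libraries the 95% interval of IL7R at 9 g/kg, -1.31 to -0.39, does not fix the size of the difference.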
